A study of Mus musculus with 11 samples.

Results

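The axon guidance genes described here are the semaphorins, plexins, neuropilins, Slits, Robos, netrins and netrin receptors of the mouse. They were chosen by symbol as protein-coding genes whose name begins with *Sema*, *Plxn*, *Slit*, *Robo*, *Ntn* or *Unc5*, without the *Slitrk* genes and with *Dcc*, *Nrp1* and *Nrp2* added. This gave 51 of the 35056 genes with a transcript in the data, of which 21830 are protein-coding. Among the 51 were 7 secreted class 3 semaphorins, 13 membrane semaphorins, 9 plexins, 2 neuropilins, 3 Slits, 4 Robos, 4 netrins, 2 netrin-G genes and 5 netrin receptors. The remaining 2, *Unc50* and *Unc5cl*, match the rule by spelling, and *Unc50* is not a netrin receptor. Counts are therefore also given for the 50 genes without *Unc50*.

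Guidance cues steer growing axons and migrating cells by attraction or repulsion. Secreted class 3 semaphorins bind neuropilins, which pair with A-type plexins to carry the signal across the membrane, whereas many membrane semaphorins bind plexins directly. Slits repel cells through Robo receptors. Netrins attract through DCC and repel through UNC5 receptors, and both kinds of receptor have been described as dependence receptors, which can trigger cell death when their ligand is absent. Small cell lung cancer (SCLC) cells of the neuroendocrine type express many neuronal genes.

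RNA was sequenced from KP1 cells, a mouse SCLC cell line mutant for *Rb* and *p53*. The control group held 2 libraries of untreated cells, labelled replicates 2 and 3. The irradiated group held 3 libraries, labelled replicates 1, 2 and 3, of cells that received 5 Gy, and the labels give 24 h after radiation as the time of collection. Nothing in the labels says that the libraries came from separate cultures, so p values measure the spread between these samples, which may be technical. The estimated reads summed to 31036317 and 26432466 in control replicates 2 and 3 and to 24469945, 21185956 and 27243557 in irradiated replicates 1, 2 and 3. Below, values in several libraries follow that order.

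The neuroendocrine identity of the cells was checked first. The neuroendocrine markers *Insm1*, *Chga*, *Chgb*, *Syp*, *Ncam1*, *Uchl1* and *Calca* had reads in every library. *Chga*, which encodes the secretory granule protein chromogranin A, stood at 437 and 396 TPM (an abundance per transcript length, scaled to a fixed total within a library) in control and at 278, 391 and 475 TPM in irradiated cells. *Insm1*, a neuroendocrine transcription factor, stood at 263 and 369 TPM in control and at 502, 313 and 310 TPM in irradiated cells. Both had overlapping groups, as did *Chgb*, *Syp* and *Calca*. *Ncam1* was lower in every irradiated library (78.0, 46.7 and 84.0 TPM) than in either control (354 and 153 TPM), and *Uchl1* was higher in every irradiated library (867, 1060 and 758 TPM) than in either control (451 and 684 TPM). Markers of other cells were low but not all absent. The 6 fibroblast markers summed to 82.6 and 66.1 TPM in control and to 46.2, 59.0 and 53.5 TPM in irradiated cells, mostly from *Pdgfra*, while *Col3a1* had 0 reads in every library. The 4 leukocyte markers summed to 4.55 and 6.91 TPM in control and to 1.62, 1.16 and 1.44 TPM in irradiated cells, mostly from *Cd68*, with *Ptprc* at 24, 9, 1, 8 and 5 reads. The 3 endothelial markers summed to 10.7 and 11.95 TPM in control and to 7.73, 7.66 and 10.6 TPM in irradiated cells, mostly from *Tek*, with *Cdh5* at 0, 1, 0, 2 and 0 reads. All of these sums were thus lower in every irradiated library than in either control, and their part in the results below was not tested. In bulk RNA, fewer cells of a type and less RNA per cell cannot be told apart.

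Guidance genes have long transcripts, and the libraries differed in the transcript lengths their reads came from. Weighted by reads, the mean transcript length was 5463 and 4729 bases in the control libraries and 3715, 3625 and 3998 bases in the irradiated libraries. Control replicate 2 stood farthest out, also on the first principal component, where the libraries lay at −86.9, −31.4, 49.9, 48 and 20.4. Over all 14106 genes tested, the median log2 fold change (irradiated minus control) fell from 0.77 in the tenth of genes with the shortest transcripts to −0.78 in the tenth with the longest. Transcripts of the tested guidance genes were a median of 4631 bases long, against 2502 bases for all genes tested, and 38 of 44 were longer than that overall median. Fold changes are therefore given from a pair of edgeR quasi-likelihood fits over all genes. The first had no term for length, and the second had a length offset, a smooth curve per library fitted to the trend with transcript length, technical or biological. With the offset, those medians for the shortest and longest transcripts were 0.20 and −0.04. A gene was called at an adjusted p under 0.05 (Benjamini-Hochberg over all genes tested) and counted past both thresholds when its log2 fold change was also above 1.5 or below −1.5. An exact permutation test of 1 gene, with 2 libraries on one side and 3 on the other, could reach a p no lower than 0.1. The tests here therefore borrow their estimate of spread from the whole transcriptome.

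The guidance genes called lower in irradiated cells were called in the edgeR fit without the length offset and not in the one with it. With effective lengths in place of that offset, edgeR called 8 guidance genes lower (against 9.84% of all genes). Of the 51 genes, 44 had enough reads to be tested. Without the length offset, 9 were lower at adjusted p (20.5% of those tested, against 13.0% of all genes tested) and 1 was higher (2.27%, against 12.7%). Past both thresholds, 2 were lower, *Unc5c* and *Plxna4* (4.55%, against 1.9% of all genes), and 0 were higher by edgeR (against 1.63%) or by DESeq2. At an unadjusted p under 0.05 edgeR had 17 lower (against 20.1% of all genes) and 3 higher (against 20.9%). With the length offset, *Unc5a* was the 1 gene higher at adjusted p (against 4.25% of all genes), and 0 were lower (against 3.64%), with 2 lower (against 13.7%) and 10 higher (against 17.1%) at an unadjusted p under 0.05 by edgeR. Past both thresholds, 0 were higher (against 0.276%) and 0 lower (against 0.822%) with the offset. Without a filter on low counts, the fit with the offset had 7 higher (against 8.41% of all genes) and 1 lower (against 4.63%) at adjusted p. DESeq2, which was run without the offset, called 13 lower (against 14.0% of the 15349 genes it gave an adjusted p) and 2 higher (against 15.4%), with 2 lower (against 2.03%) and 0 higher (against 2.0%) past both thresholds. Its calls beyond those of edgeR without the offset were *Slit1*, *Nrp1*, *Plxna1* and *Plxna3* lower and *Unc50* higher.

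The median log2 fold change of the 44 tested genes was −0.38 without the offset and 0.16 with it, beside 0.02 and 0.04 over all genes tested. Below 0 lay 28 of 44 (63.6%, against 49.0% of all genes) without the offset and 18 of 44 (40.9%, against 46.4%) with it. Length deciles are numbered here from the shortest transcripts (1) to the longest (10). In decile 10, which held 14 guidance genes, their median without the offset was −0.60 and that of all genes −0.78. The order was the other way in decile 9, with 12 guidance genes, at −0.56 for these and −0.40 for all genes. In decile 8, with 10 guidance genes, the medians were −0.28 and −0.25. Every other decile held at most 3 guidance genes. In CPM (reads scaled by TMM library sizes, with no term for length) every irradiated library lay below both controls for 20 of the 44 genes (against 29.3% of all genes) and above them for 11 (against 30.1%). After the offset these counts were 6 (against 21.6% of all genes) and 13 (against 27.7%). Without *Unc50*, the counts at adjusted p were 9 lower and 1 higher without the offset, and the medians were −0.44 without it and 0.10 with it.

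Leaving out control replicate 2, the library with the longest transcripts, left 0 guidance genes lower and 0 higher at adjusted p in the edgeR fit without the offset, while the total over all genes went from 3613 to 272. Without control replicate 3 or irradiated replicates 1, 2 and 3 in turn, 10, 2, 2 and 11 guidance genes were lower, beside 14.0%, 6.25%, 5.78% and 9.88% of all genes. Of the 9 genes called lower, *Plxnb1* kept its call in 4 of the 5 fits with 1 library left out, *Unc5c* and *Plxna2* in 3, *Unc5d*, *Plxna4* and *Sema3a* in 2, *Slit2* and *Sema3c* in 1 and *Sema6a* in 0.

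**Figure D1:**
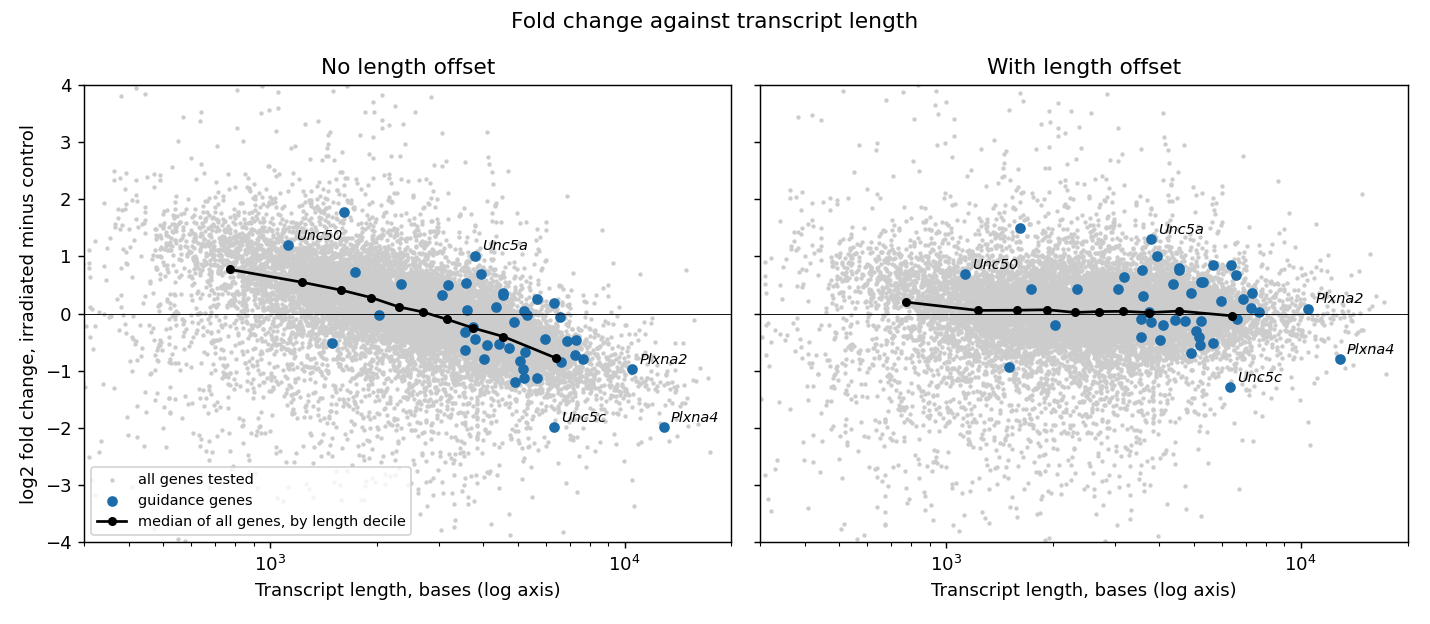
Log2 fold change (irradiated minus control, vertical axis) against transcript length in bases (log axis) for all genes tested (grey) and the 44 tested guidance genes (blue), without (left) and with (right) the length offset. The black line joins the medians of all genes by length decile, which run from 0.77 to −0.78 on the left and from 0.20 to −0.04 on the right, and 89 (left) and 81 (right) genes beyond the axes are not drawn.

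Among the secreted class 3 semaphorins, the ligands of neuropilins, *Sema3c*, *Sema3e* and *Sema3f* had the highest mean levels at 11.2, 8.59 and 11.3 TPM. *Sema3a*, which repels axons through neuropilin-1, stood at 2.85 and 2.29 TPM in control cells and at 0.811, 0.591 and 0.979 TPM in irradiated cells. Every irradiated library was below both controls. Between the groups, *Sema3a* had a log2 fold change of −1.20 ± 0.35 (SE) without the length offset (edgeR adjusted p = 0.0409) and −0.69 ± 0.32 with it (edgeR adjusted p = 0.179). *Sema3c*, which can attract as well as repel, stood at 16.2 and 14.9 TPM in control cells and at 7.63, 6.84 and 10.4 TPM in irradiated cells. The groups again did not overlap. Its log2 fold change went from −0.67 ± 0.21 (edgeR adjusted p = 0.0482) to −0.13 ± 0.18 with the offset (edgeR adjusted p = 0.648). Without the offset, the edgeR adjusted p of *Sema3a* was 0.237, 0.0893 and 0.127 when control replicate 2 or irradiated replicates 1 or 2 were left out, and that of *Sema3c* was 0.184, 0.0733, 0.110 and 0.127 when control replicates 2 or 3 or irradiated replicates 1 or 2 were. With effective lengths *Sema3c* was at 0.0841. The other 3 secreted semaphorins with a mean of 1 TPM or more were not called by edgeR in either fit. *Sema3e*, a ligand that binds plexin-D1 without a neuropilin, had log2 fold changes of −0.07 without and 0.67 with the offset. *Sema3f*, a neuropilin-2 ligand, had 0.51 and 0.43, and *Sema3g* had 0.33 and 0.76, the latter with an edgeR adjusted p of 0.0547. *Sema3d* had at most 12 reads in a library, and *Sema3b*, with at most 6, was not tested.

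All 13 membrane semaphorins were tested, and *Sema6a* was the 1 called in either edgeR fit. *Sema6a*, a ligand of A-type plexins, stood at 28.0 and 30.8 TPM in control cells and at 15.7, 13.0 and 17.4 TPM in irradiated cells, with every irradiated library below both controls. The log2 fold change of *Sema6a* was −0.60 ± 0.16 (edgeR adjusted p = 0.0301) without the offset and −0.14 ± 0.16 with it (edgeR adjusted p = 0.601). That call was lost without any 1 library, at 0.0629, 0.121, 0.067, 0.104 and 0.0628 (edgeR adjusted p, in the order of the libraries). *Sema4c*, a plexin-B2 ligand, was the most abundant by mean level at 46.5 TPM and had log2 fold changes of 0.33 without and 0.44 with the offset. *Sema6c* followed at 37.0 TPM, with −0.02 and −0.21. The plexin-B1 ligand *Sema4d* had 0.11 and 0.52, and *Sema4b* had −0.24 and 0.03. Higher estimates with the offset were found for *Sema4f* (0.69 without, 1.00 with), *Sema4g* (0.36, 0.80) and *Sema6b* (0.54, 0.77), whose edgeR adjusted p values with the offset were 0.078, 0.0721 and 0.072. *Sema4a* had 0.74 and 0.43, and *Sema6d* had −0.55 and −0.20. *Sema5a*, *Sema5b* and *Sema7a* had mean levels of 0.872, 0.200 and 0.436 TPM, and none of them was called in either edgeR fit. The median of the 13 genes was 0.11 without the offset and 0.43 with it.

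Plexins, the signalling receptors of semaphorins, had the highest summed level of the guidance families. It was 418 and 344 TPM in control cells and 173, 173 and 233 TPM in irradiated cells. Of the 9 plexins, 8 had log2 fold changes below 0 without the offset (against 49.0% of all genes) and 3 were called lower by edgeR (against 13.0%). With the offset 3 were below 0 (against 46.4%) and 0 were called lower (against 3.64%). *Plxna2*, a class 3 and class 6 semaphorin receptor with a transcript length of 10492 bases, stood at 71.1 and 54.2 TPM in control cells and at 21.3, 24.5 and 33.1 TPM in irradiated cells. No irradiated library reached the lower control. For *Plxna2* the log2 fold change was −0.97 ± 0.21 (edgeR adjusted p = 0.0145) without the offset and 0.09 ± 0.16 with it (edgeR adjusted p = 0.740), so the sign of the estimate changed. *Plxnb1*, a receptor of semaphorin 4D, stood at 94.8 and 60.2 TPM in control cells and at 26.1, 27.5 and 34.7 TPM in irradiated cells. The groups were apart in TPM and in CPM adjusted for length. The log2 fold change of *Plxnb1* was −0.96 ± 0.19 (edgeR adjusted p = 0.012) without the offset and −0.41 ± 0.14 with it (edgeR adjusted p = 0.0963). *Plxna4*, which serves with neuropilins in class 3 semaphorin signalling, had the longest transcript of the members at 12877 bases and few reads, 141 and 72 in control and 29, 13 and 31 in irradiated cells. In TPM it stood at 0.714 and 0.403 against 0.139, 0.0675 and 0.142. The log2 fold change of *Plxna4* was −1.98 ± 0.50 (edgeR adjusted p = 0.026) without the offset and −0.79 ± 0.44 with it (edgeR adjusted p = 0.259). These calls without the offset were lost without control replicate 2 (edgeR adjusted p = 0.0861 for *Plxna2*, 0.073 for *Plxnb1* and 0.167 for *Plxna4*), those of *Plxna2* and *Plxna4* also without irradiated replicate 1 (0.0537 and 0.0523) and that of *Plxna4* without irradiated replicate 2 (0.0818).

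*Plxnb2*, a receptor of class 4 semaphorins, had the highest mean level of all members and was called in neither edgeR fit. It stood at 139.8 and 122.3 TPM in control cells and at 84.4, 66.2 and 94.3 TPM in irradiated cells. The irradiated libraries were below both controls in TPM and above both in CPM adjusted for length. Its log2 fold changes were −0.44 ± 0.17 without and 0.22 ± 0.13 with the offset. *Plxna1* and *Plxna3*, further class A receptors, had −0.72 and −0.79 without and 0.10 and −0.46 with the offset. Neither was called in these 2 fits. DESeq2 without the offset called both lower (DESeq2 adjusted p = 0.0178 and 0.016), as did edgeR with RLE size factors (edgeR adjusted p = 0.0484 and 0.0486), without a filter (0.00573 and 0.00309) or without irradiated replicate 3 (0.0444 and 0.0472). In edgeR, *Plxna1* was also called without control replicate 3 (0.0221) and *Plxna3* with effective lengths (0.0348). *Plxnc1*, the semaphorin 7A receptor, had −0.46 and 0.37 and was called lower without control replicate 3 (−0.69, edgeR adjusted p = 0.0433, against −0.16 without control replicate 2). *Plxnd1*, the semaphorin 3E receptor, had −0.03 and 0.55. *Plxnb3* had at most 15 reads in a library. The neuropilins, co-receptors of class 3 semaphorins, had log2 fold changes of −0.64 without and −0.41 with the offset for *Nrp1* and of 0.19 and 0.85 for *Nrp2*. Neither was called in the same 2 fits. DESeq2 without the offset called *Nrp1* lower (DESeq2 adjusted p = 0.0484), as did edgeR without a filter or without control replicate 3 (edgeR adjusted p = 0.0269 and 0.022).

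**Figure D2:**
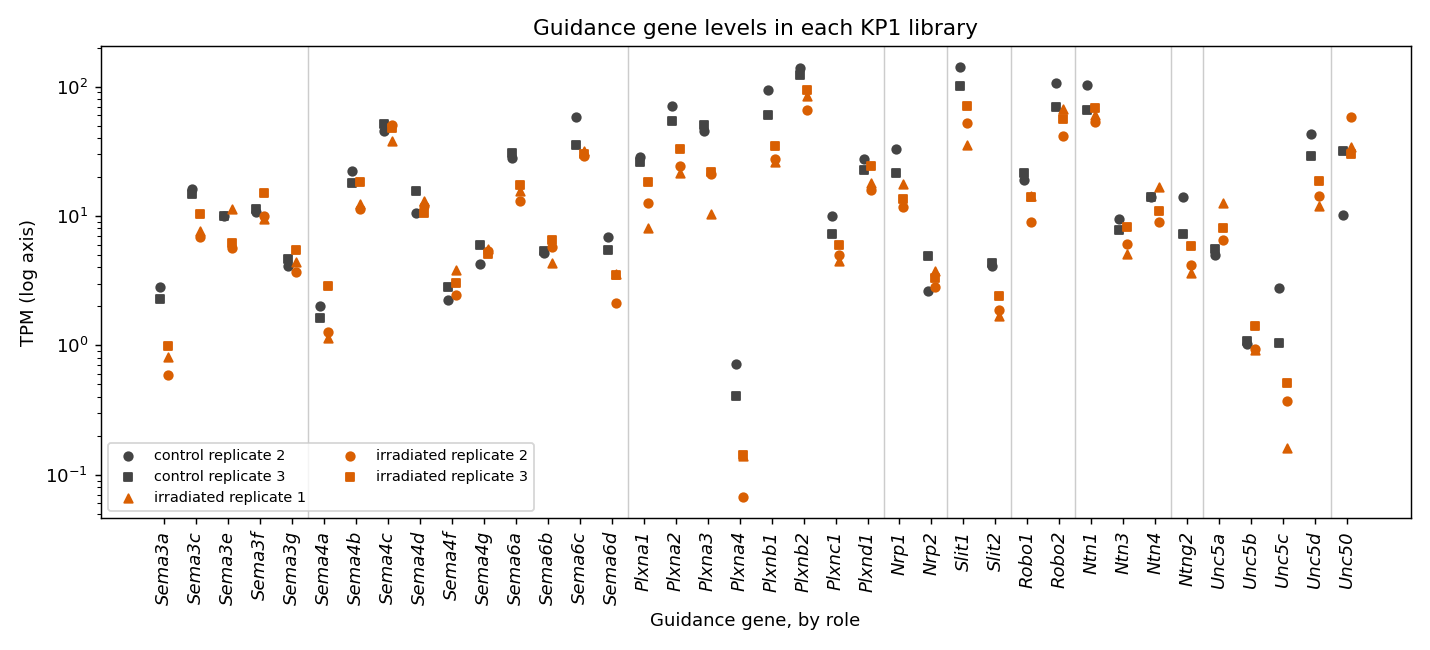
Level in TPM (log axis) of the 38 guidance genes named by level or call, ordered by role along the horizontal axis, with 1 point per library (grey, control replicates; orange, irradiated replicates). *Plxnb2*, *Slit1* and *Plxnb1* were among the genes with all irradiated libraries below both controls in TPM, and *Unc5a* had all of them above. Of these, edgeR called *Plxnb1* without the length offset and *Unc5a* in both fits. In CPM adjusted for length, the irradiated libraries of *Plxnb2* were above both controls. The share of all genes with groups apart in TPM was not counted.

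Of the Slit ligands, *Slit1* was abundant, *Slit2* was low and *Slit3* had 0 reads in every library. *Slit1* stood at 140.7 and 100.8 TPM in control cells and at 35.1, 52.2 and 70.5 TPM in irradiated cells. Between the groups the log2 fold change was −0.84 ± 0.27 without the offset (edgeR adjusted p = 0.0548) and −0.30 ± 0.24 with it (edgeR adjusted p = 0.417), so edgeR did not call it in either fit although the groups did not overlap in TPM. *Slit1* was called lower by DESeq2 without the offset (DESeq2 adjusted p = 0.0114) and by edgeR without a filter, control replicate 3 or irradiated replicate 3 (edgeR adjusted p = 0.00165, 0.0231 and 0.0384). *Slit2* stood at 4.11 and 4.30 TPM in control cells and at 1.69, 1.87 and 2.41 TPM in irradiated cells, and was called lower without the offset (−0.79 ± 0.23, edgeR adjusted p = 0.0392). With the offset its estimate was 0.02 ± 0.22 (edgeR adjusted p = 0.954). The call was lost without control replicates 2 or 3 or irradiated replicates 1 or 2 (edgeR adjusted p = 0.123, 0.0937, 0.0874 and 0.108), and with effective lengths (0.0689). The Slit receptors *Robo1* and *Robo2* had mean levels of 15.6 and 68.2 TPM and were called in neither edgeR fit. Their log2 fold changes were −0.48 and −0.44 without and 0.26 and −0.15 with the offset. *Robo4*, the endothelial member, had 0 reads in every library, and *Robo3* had 1 read in irradiated replicate 2 and 0 elsewhere.

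*Ntn1*, the netrin-1 ligand of DCC and the UNC5 receptors, was among the more abundant members and was called in neither edgeR fit. It stood at 102.7 and 66.3 TPM in control cells and at 60.2, 53.1 and 68.7 TPM in irradiated cells, so the groups overlapped in TPM. Its log2 fold changes were −0.32 ± 0.16 without and −0.10 ± 0.14 with the offset. *Ntn3* had −0.15 and 0.36, and its exons overlap those of *Tbc1d24* on the same strand, so its reads are uncertain. *Ntn4*, a netrin of basement membranes, had 0.06 and 0.30. *Ntng2*, a membrane-anchored netrin-G, had −0.52 and −0.93, *Ntng1* had 0 reads in every library, and *Ntn5*, with at most 14 reads, was not tested.

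Without the length offset, the netrin receptors held the edgeR calls in opposite directions. *Unc5a*, a netrin-1 receptor, stood at 4.97 and 5.60 TPM in control cells (mean 5.28 ± 0.447, SD, n = 2) and at 12.5, 6.53 and 8.04 TPM in irradiated cells (mean 9.02 ± 3.10, SD, n = 3). All irradiated libraries were above both controls, with irradiated replicate 1 the highest. Its estimated reads were 284 and 282 in control and 703, 356 and 492 in irradiated cells. The log2 fold change of *Unc5a* was 1.01 ± 0.27 without the offset (2.02-fold, edgeR adjusted p = 0.03) and 1.30 ± 0.27 with it (2.47-fold, edgeR adjusted p = 0.0342), and it was the only guidance gene called in both fits. The call was not stable to the choice of libraries. With the offset, the edgeR adjusted p was 0.157, 0.0519, 0.0629 and 0.0761 without control replicates 2 and 3 and irradiated replicates 1 and 2 in turn, and 0.0411 without irradiated replicate 3. Without the offset it was 0.127, 0.0541 and 0.062 when control replicate 2, control replicate 3 or irradiated replicate 1 was left out. The log2 fold change stayed between 1.00 and 1.44 with the offset when any 1 library was left out. The gene lies at chr13:54949411-55006018 on the plus strand of GRCm38. Its exons overlap those of *Hk3* on the opposite strand, which had 0 reads in every library.

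*Unc5c* and *Unc5d*, paralogous netrin receptors, were called lower without the offset. *Unc5d* was the most abundant of the family, at 42.7 and 29.2 TPM in control cells and at 12.01, 14.2 and 18.6 TPM in irradiated cells. Its log2 fold change went from −0.84 ± 0.21 (edgeR adjusted p = 0.0239) to −0.10 ± 0.16 with the offset (edgeR adjusted p = 0.703). *Unc5c* stood at 2.78 and 1.04 TPM in control cells and at 0.161, 0.368 and 0.509 TPM in irradiated cells, from 219, 119, 25, 31 and 59 reads. The controls differed from each other by more TPM than the irradiated libraries did, though not as a ratio, and the groups did not overlap. The log2 fold change of *Unc5c* was −1.99 ± 0.44 without the offset (edgeR adjusted p = 0.0171) and −1.29 ± 0.39 with it (edgeR adjusted p = 0.077). Without the offset, the call of *Unc5d* was lost without control replicate 2, irradiated replicate 1 or irradiated replicate 2 (edgeR adjusted p = 0.154, 0.07 and 0.0605), and that of *Unc5c* without control replicate 2 or irradiated replicate 2 (0.119 and 0.0532). *Unc5b* had 0.25 and 0.85 and was called in neither edgeR fit, nor was *Dcc*, the attractive netrin receptor, at a mean of 0.823 TPM.

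Within the 4 UNC5 receptors, the balance of levels differed between groups. *Unc5a* made up 9.65% and 15.2% of their summed TPM in control cells and 48.8%, 29.7% and 28.2% in irradiated cells, while *Unc5d* made up 83.0% and 79.1% against 47.0%, 64.4% and 65.1%. These shares were not tested, and the transcripts of *Unc5d* and *Unc5a* differ in length, 6622 against 3794 bases.

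*Unc50*, which the rule takes in by spelling, had a short transcript of 1129 bases and log2 fold changes of 1.20 without and 0.69 with the offset, and it was called in neither fit. DESeq2 without the offset called it higher (DESeq2 adjusted p = 0.0116), as did edgeR without a filter or without control replicate 3 (edgeR adjusted p = 0.000694 and 0.0142). *Unc5cl* had 0 reads in every library.

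**Figure D3:**
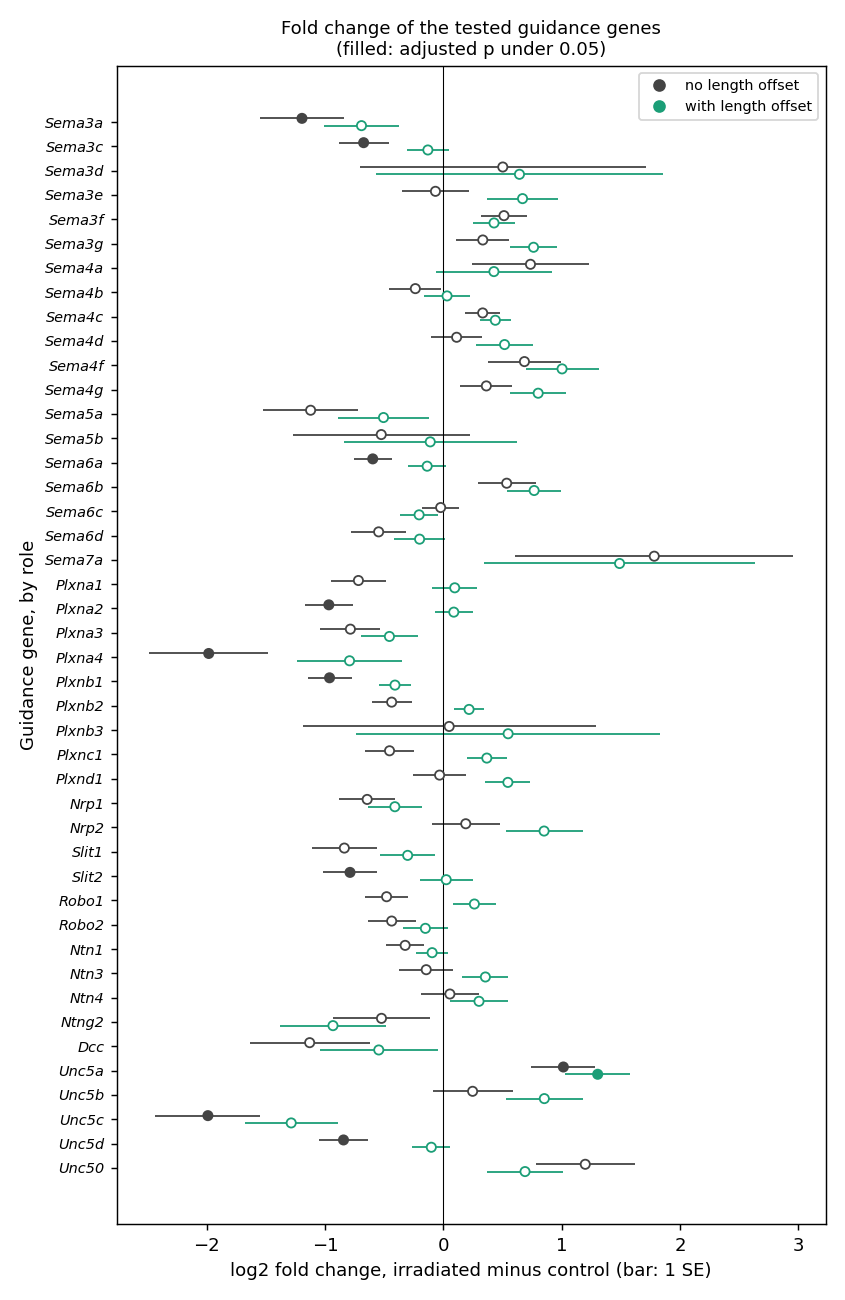
Log2 fold change (irradiated minus control) of the 44 tested guidance genes with 1 SE, without (grey) and with (green) the length offset, ordered by role. Filled points had an edgeR adjusted p under 0.05, 10 of them without the offset and *Unc5a* alone with it.

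Genes outside the rule that bind guidance cues or act below their receptors were described from 4 lists holding 82 genes, of which 77 were tested. Without the offset, 19 of 77 were lower (24.7%, against 13.0% of all genes) and 7 higher (9.09%, against 12.7%) at adjusted p by edgeR. With it, 5 were lower (6.49%, against 3.64%) and 2 higher (2.6%, against 4.25%), and in both fits 0 were past both thresholds. DESeq2 without the offset called 20 lower (against 14.0%) and 10 higher (against 15.4%), with 1 higher past both thresholds (against 2.0%). At an unadjusted p under 0.05 edgeR had 28 lower (against 20.1%) and 12 higher (against 20.9%) without the offset. With the offset it had 11 lower (against 13.7%) and 12 higher (against 17.1%) at that threshold. The same shares of all genes stand beside the counts of each list below. The median log2 fold change of the 77 was −0.29 without the offset and 0.06 with it. Without control replicate 2 in the edgeR fit without the offset, 1 was lower, *Trio* (edgeR adjusted p = 0.0472), and 0 were higher, so the calls of all other genes named next were lost there (0.0516 to 0.132). With the offset, the 7 calls were likewise lost without control replicate 2 or irradiated replicates 1 or 2, where 1, 0 and 2 of all genes tested were called (edgeR adjusted p of the 7 from 0.0656 to 0.182). *Casp9* without the offset and *Rap1b* with it lost their calls without any 1 library (edgeR adjusted p from 0.0531 to 0.132 and from 0.0607 to 0.142), and *Rap1b* without the offset lost it also without control replicate 3 or irradiated replicates 1 or 2 (0.0772, 0.0849 and 0.092). The call of *Gsk3b* was also lost without irradiated replicate 1 (0.0537), and *Trim9* and *Myo9b* with the offset also without irradiated replicate 3 (0.051 and 0.0588).

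Of the 22 tested receptors and co-receptors outside the rule, 3 were lower without the offset and 1 with it. *Adgrl3*, an adhesion receptor that binds FLRT and UNC5 proteins, was lower in both fits (−0.90 and −0.85, edgeR adjusted p = 0.0143 and 0.0353), but not with effective lengths (edgeR adjusted p = 0.115). *Flrt1*, whose product belongs to a family that binds UNC5 receptors, was lower without the offset (−1.15, edgeR adjusted p = 0.0135). With the offset *Flrt1* had −0.50 (edgeR adjusted p = 0.0999). Among 27 plexin and semaphorin effectors, 7 were lower and 4 higher without the offset and 1 each way with it. *Farp2*, a Rac exchange factor bound to A-type plexins, was lower in both fits (−1.23 and −1.15, edgeR adjusted p = 0.0148 and 0.0365), and *Rap1b*, a small GTPase on which plexins act, was higher in both (0.56 and 0.58, edgeR adjusted p = 0.0301 and 0.0468). *Gipc1*, a PDZ adaptor, and *Gsk3b*, a kinase, were called without the offset at 0.89 and −1.11 and had 0.48 and −0.41 with it.

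Of 14 Slit and Robo effectors, 5 were lower and 2 higher without the offset, and 2 were lower with it. These 2 were *Enah*, an actin regulator (−0.93 without and −0.87 with the offset, edgeR adjusted p = 0.0118 and 0.029), and *Myo9b*, an unconventional myosin (−0.84 and −0.65, edgeR adjusted p = 0.011 and 0.0325, and −1.60 with effective lengths). *Srgap1* and *Srgap2*, GTPase-activating proteins that bind Robo, were lower without the offset at −1.37 and −0.79 and had −0.55 and −0.27 with it. Of 14 DCC and UNC5 effectors, 4 were lower and 1 higher without the offset, and 1 was called each way with it. *Trim9*, a ubiquitin ligase that binds DCC, was lower in both fits (−1.12 and −1.002, edgeR adjusted p = 0.0101 and 0.0277). *Casp9*, the initiator caspase of the mitochondrial death pathway, was higher in both (0.53 and 0.75, edgeR adjusted p = 0.0314 and 0.0269). *Trio*, a guanine nucleotide exchange factor, and *Trim67*, a relative of *Trim9*, were lower without the offset at −0.94 and −1.03 and had −0.27 and −0.12 with it.

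Promoter windows of RefSeq (GRCm38.p6, 250 bases before to 50 after a start) were found for 42 of the 51 genes, 55 windows in all. ACGTG, which is 1 form of the core of the hypoxia-inducible factor site, occurred on either strand in 16.4% of these windows. Its share of all 32851 windows was 19.6%. The form GCGTG was not searched. Of the 10 called guidance genes, 7 had a window, and *Sema3c* was the 1 whose window held ACGTG. The windows of *Unc5a* and *Unc5c*, the netrin receptors with the highest and lowest estimates, are printed with that of *Sema3c*, with the matching bases in capitals, 5′ to 3′ along the plus strand, on which all 3 genes lie. They span chr13:54949161-54949460 for *Unc5a*, chr3:141465314-141465613 for *Unc5c* and chr5:17574566-17574865 for *Sema3c*, with a G and C content of 78.3%, 68.3% and 75.7%. A match describes letters only.
Unc5a: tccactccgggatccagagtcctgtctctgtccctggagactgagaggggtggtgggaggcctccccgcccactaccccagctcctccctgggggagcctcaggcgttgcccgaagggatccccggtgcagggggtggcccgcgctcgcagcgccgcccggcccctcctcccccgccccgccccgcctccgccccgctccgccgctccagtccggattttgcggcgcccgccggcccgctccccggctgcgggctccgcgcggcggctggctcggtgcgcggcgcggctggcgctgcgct
Unc5c: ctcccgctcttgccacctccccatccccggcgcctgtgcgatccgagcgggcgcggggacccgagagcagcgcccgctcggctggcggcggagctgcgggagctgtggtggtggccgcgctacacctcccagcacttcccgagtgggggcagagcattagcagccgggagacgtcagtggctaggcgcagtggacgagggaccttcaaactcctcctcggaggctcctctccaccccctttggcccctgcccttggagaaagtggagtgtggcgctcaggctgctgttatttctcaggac
Sema3c: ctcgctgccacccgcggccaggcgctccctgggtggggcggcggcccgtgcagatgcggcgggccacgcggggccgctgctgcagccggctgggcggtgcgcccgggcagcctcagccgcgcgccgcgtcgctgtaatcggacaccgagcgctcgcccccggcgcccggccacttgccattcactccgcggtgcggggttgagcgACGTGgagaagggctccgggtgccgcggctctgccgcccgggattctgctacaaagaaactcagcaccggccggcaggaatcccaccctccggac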

How the data were processed

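Bulk RNA sequencing libraries of KP1 cells, 2 control and 3 irradiated, were analysed. A further 6 single-cell samples were not used here. The authors quantified reads with Salmon (0.8.2 in the submitters' processing notes) on mm10 and deposited estimated counts (expected counts, not scaled) per transcript. The authors also deposited TPM, transcript lengths and effective lengths. The annotation release is not given in the sources used here.

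Transcripts were matched to GENCODE M21 on GRCm38 (112762 of 113116, 99.69%), carrying 99.87% to 99.88% of the reads in each library. Counts were summed to genes and rounded, and TPM summed. Under 3 reads in every library counted as not detected, which covers counting error only. edgeR 4.0.16 in R 4.3.3 tested 14106 genes (filterByExpr, TMM, quasi-likelihood test, Benjamini-Hochberg adjustment, no block), without and with an offset from a natural spline (5 df) of each library's deviation on log2 transcript length. Transcript length was the mean over a gene's transcripts weighted by TPM. Each SE was worked back from the test, as the absolute log2 fold change over the square root of the quasi-likelihood F statistic. Alternatives were DESeq2 1.42.0, RLE size factors, no filter, effective lengths, a 3 df spline, the replicate block and each library left out. The count without *Unc50* was added after the data were seen. The tests were tested on simulated data. That simulation planted only changes beyond the fold change threshold and scored only calls past both thresholds. Its length trend was the same in every irradiated library and absent from the controls. It therefore does not cover calls at adjusted p alone or a control library that differs in length.

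The members and lists were chosen with earlier results of these data known. Named were members called in either fit or with a mean of at least 1 TPM, and from the lists the 2 genes with the smallest p in each fit. Of the lists, 1 marker and 1 promoter motif are not reported here. Python 3.11.15 with pandas 2.3.3, numpy 2.4.6 and matplotlib 3.10.9 prepared tables and plots.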

Additional observations from a re-analysis of the deposited data

How the results depend on the processing

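With RLE size factors, effective lengths or a 3 df spline, the counts of guidance, partner and effector genes stayed within 1.5 times those reported, but the calls were not all the same. With effective lengths *Slit2*, *Sema3c* and *Adgrl3* lost their calls and *Plxna3* gained one, and RLE size factors added *Plxna1* and *Plxna3*. The cause of these changes and those given next was not tested. With the length offset in place of none, 0 guidance genes were lower past both thresholds and 0 at adjusted p, against 2 and 9 without it. Partner and effector genes went to 5 lower and 2 higher, against 19 and 7 without it, and the guidance median to 0.16, against −0.38. Single estimates that changed sign were *Robo1* 0.26, *Slit2* 0.024, *Sema4b* 0.031, *Ntn3* 0.36, *Plxna1* 0.096, *Plxna2* 0.088, *Plxnb2* 0.22, *Plxnc1* 0.37, *Plxnd1* 0.55 and *Sema3e* 0.67. DESeq2 called 2 guidance genes higher at adjusted p (15.4% of all genes). Without a filter 2 were higher (12.3% of all genes), and *Sema6c* (0.023) and *Plxnd1* (0.016) changed sign. Without a filter and with the offset, 7 guidance genes were higher and 1 lower, 6 partner genes were higher and 9 lower (8.41% higher and 4.63% lower over all genes), and the guidance median was 0.033. Without *Unc50*, a choice made after the data were seen, that median with the offset was 0.10.

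Both groups carry the numbers 2 and 3. Across genes, the difference between replicates 2 and 3 in control had a correlation of −0.196 with that in irradiated cells. Genes are not independent replicates, and the trend with transcript length was left in. Mean transcript length weighted by reads was higher in replicate 2 than in 3 in control (5463 and 4729 bases) and lower in irradiated cells (3625 and 3998 bases). The correlation therefore cannot show whether libraries of the same number were paired. A replicate block leaves irradiated replicate 1 alone in its block, so only replicates 2 and 3 of each group set the fold change. Less information is then left for a call. With the replicate block, 0 guidance genes were higher or lower at adjusted p and 0 past both thresholds. Of the partner genes, 4 were lower and 0 higher (3.5% lower and 4.27% higher over all genes). In that fit *Ntn3* was at 0.004 and *Ntn4* at −0.23. With the replicate block and the length offset together, 0 genes of either kind were called (0.135% lower and 0.0851% higher over all genes), the guidance median was 0.16, and *Robo1* was at 0.15, *Slit2* 0.16, *Sema4b* 0.09, *Ntn3* 0.49, *Ntn4* −0.0, *Unc5d* 0.025, *Plxna1* 0.26, *Plxna2* 0.22, *Plxnb2* 0.17, *Plxnc1* 0.45, *Plxnd1* 0.38 and *Sema3e* 0.28.

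Leaving out each library in turn without the offset gave 0 to 11 guidance genes lower and 0 to 2 higher at adjusted p, 0 to 2 either way past both thresholds, a median from −0.43 to −0.17, and 1 to 23 partner genes lower and 0 to 5 higher (1.28% to 14.0% lower and 0.652% to 15.7% higher over all genes). With the offset it gave 0 to 3 guidance genes higher and 0 to 1 lower at adjusted p, 0 to 1 higher past both thresholds, a median from 0.091 to 0.16, and 0 to 7 partner genes lower and 0 to 4 higher (at most 6.09% lower and 6.93% higher over all genes). With the offset the calls over all genes fell to 1, 0 and 2 without control replicate 2, irradiated replicate 1 or irradiated replicate 2, so few genes could pass. Leaving out a control leaves 1 control, assumed to vary like the irradiated libraries. Over the fits without the offset that left out a library, signs differed for *Sema4b* (−0.46 to 0.034), *Sema4d* (−0.10 to 0.38), *Sema6c* (−0.13 to 0.10), *Ntn3* (−0.30 to 0.046), *Ntn4* (−0.23 to 0.20), *Ntng2* (−0.98 to 0.17), *Nrp2* (−0.17 to 0.69), *Plxnd1* (−0.26 to 0.26) and *Sema3e* (−0.44 to 0.11). *Plxna4* had 13 to 141 reads in a library and *Unc5c* 25 to 219.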
